A study of Mus musculus with 6 samples.

Results

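The genes described here are 9 markers of the path from a dividing precursor to a young granule neuron of the dentate gyrus: Neurog2, Neurod1, Eomes, Prox1, Sox4, Sox11, Dcx, Tubb3 and Dpysl3. The rule that lists them names what the genes do and no measured value, but it was set with earlier results of these data known. The array files carry no column of gene symbols, so probes were assigned to the genes by their RefSeq accession, which gave 16 of 55681 non-control probes, between 1 and 3 for a gene, and at least 1 for each of the 9. The samples were adult hippocampal precursor cells from the dentate gyri of male C57BL6/JRj mice 8 weeks old, kept in adherent culture with both EGF and bFGF (FGF2), mitogens supplied at 20 ng/ml. For 48 h they were exposed either to human LDL, a cholesterol-rich lipoprotein of blood plasma, or to saline as the control. The LDL dose was 100 ug/ml by the treatment protocol in the labels, while the sample descriptions give another unit of volume. Each group had 3 arrays, from independent experiments on different passages, and all cultures carried both mitogens, so no array shows the cells after withdrawal of growth factors.

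In culture, precursor cells of the dentate gyrus held in EGF and FGF2 keep dividing, and neuronal differentiation begins when these mitogens are withdrawn. Proneural factors of the basic helix-loop-helix (bHLH) family bind E-boxes and start the neuronal programme, with Neurog2 acting before Neurod1. Eomes, also called Tbr2, marks the intermediate progenitors between them. Prox1 specifies granule neurons, Sox4 and Sox11 are SoxC factors that switch on genes of young neurons, and Dcx, Tubb3 and Dpysl3 encode cytoskeletal proteins of migrating and neurite-bearing immature neurons.

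The promoters of 4 of the genes are shown. They are a proneural factor called well above background and another without that call, a SoxC factor with 2 probes well above background, and Tubb3, a known target of SoxC factors. A missing call does not show that a transcript was absent. The sequences are from RefSeq on GRCm38.p6, which is not the build of the array grid (mm9), and each covers the 250 bases before the annotated start, 5′ to 3′ on the strand of the gene. Capitals mark E-boxes (CANNTG) and the core bound by SOX proteins (ACAAT, or ATTGT on the other strand), both searched on both strands.
Neurog2, chr3:127632886-127633135, plus strand: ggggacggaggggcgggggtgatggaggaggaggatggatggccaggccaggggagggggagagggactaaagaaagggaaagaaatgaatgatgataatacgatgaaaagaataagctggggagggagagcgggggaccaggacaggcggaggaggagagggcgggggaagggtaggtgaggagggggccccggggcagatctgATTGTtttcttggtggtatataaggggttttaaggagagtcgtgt
Neurod1, chr2:79456637-79456886, minus strand: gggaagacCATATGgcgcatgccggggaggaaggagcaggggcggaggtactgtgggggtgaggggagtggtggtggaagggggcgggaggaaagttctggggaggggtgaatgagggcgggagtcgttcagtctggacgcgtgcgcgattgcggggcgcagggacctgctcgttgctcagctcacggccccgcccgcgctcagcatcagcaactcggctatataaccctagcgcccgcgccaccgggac
Sox11, chr12:27342719-27342968, minus strand: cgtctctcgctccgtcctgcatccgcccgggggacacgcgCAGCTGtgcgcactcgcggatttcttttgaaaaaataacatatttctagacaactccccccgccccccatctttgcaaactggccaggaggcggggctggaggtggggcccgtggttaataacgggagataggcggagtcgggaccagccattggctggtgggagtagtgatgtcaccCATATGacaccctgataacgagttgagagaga
Tubb3, chr8:123411303-123411552, plus strand: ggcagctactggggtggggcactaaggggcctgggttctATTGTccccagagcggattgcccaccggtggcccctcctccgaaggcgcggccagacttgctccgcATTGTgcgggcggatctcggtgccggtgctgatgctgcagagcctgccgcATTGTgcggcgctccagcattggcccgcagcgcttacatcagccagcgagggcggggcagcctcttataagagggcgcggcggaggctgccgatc
Of the 9 genes, 8 had a promoter in the table used. They had 10 windows, with more than 1 for Prox1 and Dcx. At least 1 E-box lay in a window of 4 of the 8, namely Neurod1, Prox1 (not in each of its windows), Sox4 and Sox11. Counted by window and not by gene, 66.2% of the 32851 promoter windows held one. The SOX core lay in the windows of Neurog2, with 1 match, and Tubb3, with 3, against 27.7% of all windows. These matches describe the letters only and show no binding.

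After 48 h of LDL, none of the 7 testable genes (0 of 7) reached an adjusted p under 0.05 by limma, and 2 of them, Neurog2 and Eomes, had an unadjusted p under 0.05. Neurog2, Eomes, Tubb3, Sox4 and Sox11 had lower mean signals with LDL, by 0.23 to 0.36 on the log2 scale, Prox1 had a higher one by 0.37, and Dpysl3 differed by -0.01. Neurod1 and Dcx were not well above background on any of the 6 arrays. Among the 16 probes of the 9 genes, 10 had this call on all 6 arrays (62.5%, against 54.9% of all probes) and 5 on none (31.2%, against 28.4%). Over all features 34 of 24222 passed, or 0.14%, 6 higher (0.0248%) and 28 lower (0.116%), or 10 higher and 22 lower with median scaling. Throughout, a level is the log2 processed signal minus the 75th percentile of its array, a difference is LDL minus saline on that scale, and values of different probes are not set against each other. In cultures measured whole, fewer cells of a type and less RNA per cell cannot be told apart.

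**Figure D1:**
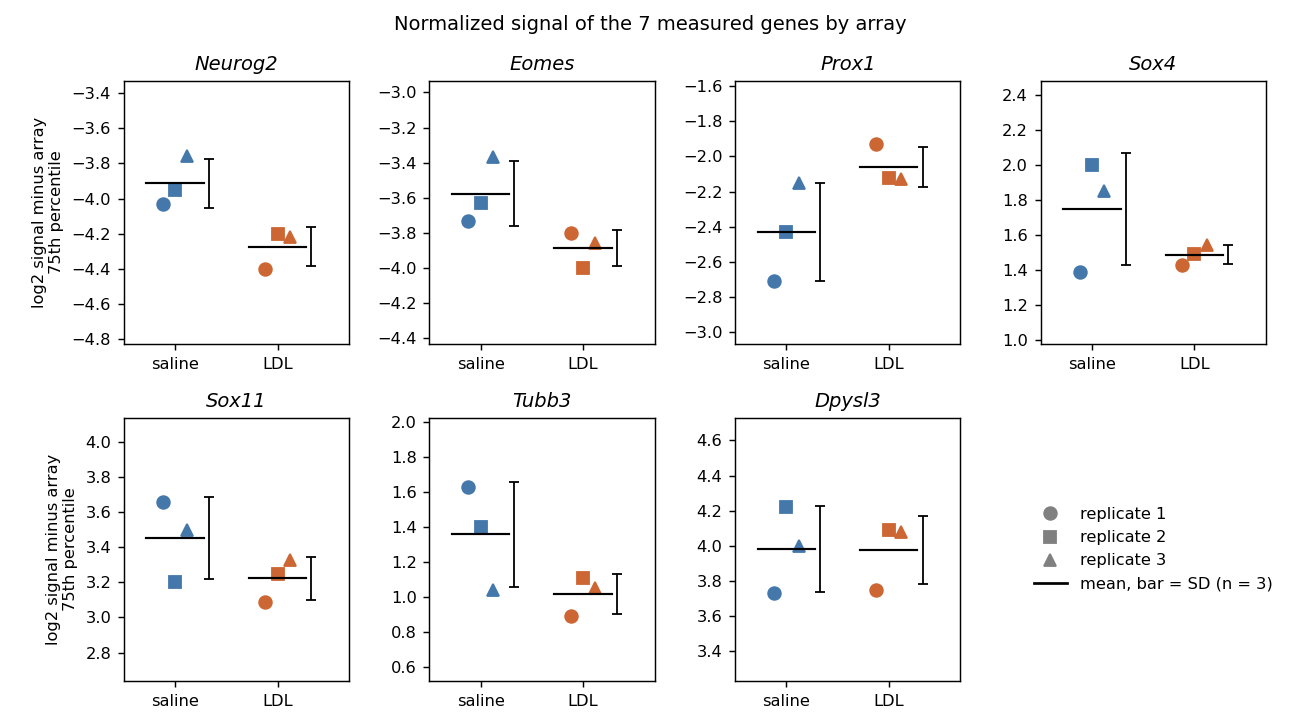
Level of the 7 tested genes on each array (log2 processed signal minus the 75th percentile of the array), with the mean (line) and SD (bar) of 3 arrays a group and a marker for each replicate number; every panel spans 1.5 log2 units but has its own position. The groups stand apart for Neurog2 and Eomes, lower with LDL, and for Prox1, higher with LDL, and overlap for the other 4.

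Of the proneural bHLH pair, Neurog2 was detected, close to the limit of detection, and Neurod1 was not. The only Neurog2 probe was well above background on 6 of 6 arrays, with processed signals of 46.5, 47.3 and 69.9 on the saline arrays and 45.5, 45.7 and 51.6 on the LDL arrays in replicates 1 to 3. Its levels were -4.03, -3.95 and -3.76 on the saline arrays and -4.40, -4.20 and -4.22 on the LDL arrays. The groups did not overlap on the normalized scale, but they did in the unscaled signals, where LDL replicate 3 lay above saline replicates 1 and 2. The mean went from -3.91 ± 0.14 to -4.27 ± 0.11 (SD, n = 3 each), a log2 fold change of -0.36 (SE 0.12, 95% interval -0.63 to -0.09) that did not pass over all features in limma (adjusted p = 0.527). With normexp background correction and quantile normalization it was -0.16, and in the authors' log2 values -0.24.

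Neurod1, which acts after Neurog2 in differentiating granule neurons, has 2 probes, and neither was well above background on any array. The brighter of them had processed signals of 6.81, 7.34 and 19.3 on the saline arrays and 12.4, 5.97 and 19.1 on the LDL arrays. Its highest signals were thus those of replicate 3 in both groups. By a looser scanner flag, positive and significant over background, this probe passed on 5 of 6 arrays. The other probe passed on none and ran from 4.18 to 7.49 over the 6 arrays, near the median of 4.44 to 7.91 that probes not well above background had on these arrays. No fold is given for Neurod1, because both groups lay below the detection call.

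Eomes was close to its limit of detection. Its brighter probe was well above background on 6 of 6 arrays, with processed signals of 57.5, 59.1 and 91.5 on the saline arrays and 69.0, 52.8 and 66.4 on the LDL arrays. The levels were -3.73, -3.63 and -3.37 on the saline arrays and -3.80, -4.00 and -3.86 on the LDL arrays, so the groups did not overlap on the normalized scale, while the unscaled signals did. The log2 fold change was -0.31 (SE 0.13, 95% interval -0.61 to -0.01), which did not pass (limma adjusted p = 0.654). It was -0.13 with normexp and quantile normalization and -0.19 in the authors' log2 values. The dimmer Eomes probe was well above background only on saline replicate 1, at a signal of 26.2. On the other 5 arrays it ran from 10.3 to 20.0, and the looser flag was met on 6 of 6.

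Detection of such dim probes also depends on the array. The share of probes well above background was 55.9% on saline replicate 2 and 59.7% on LDL replicate 1, against 64.1% to 66.9% on the other 4 arrays. The lowest signal called well above background was 30.8 and 33.4 on those 2 arrays and between 13.9 and 20.2 on the others. The 2 arrays belong to different groups. Whether their background has a part in the Neurog2 and Eomes differences was not tested. With 1 of the 2 arrays left out and the other kept, these differences lay between -0.38 and -0.30. With normexp background correction and quantile normalization they were -0.16 for Neurog2 and -0.13 for Eomes.

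**Figure D2:**
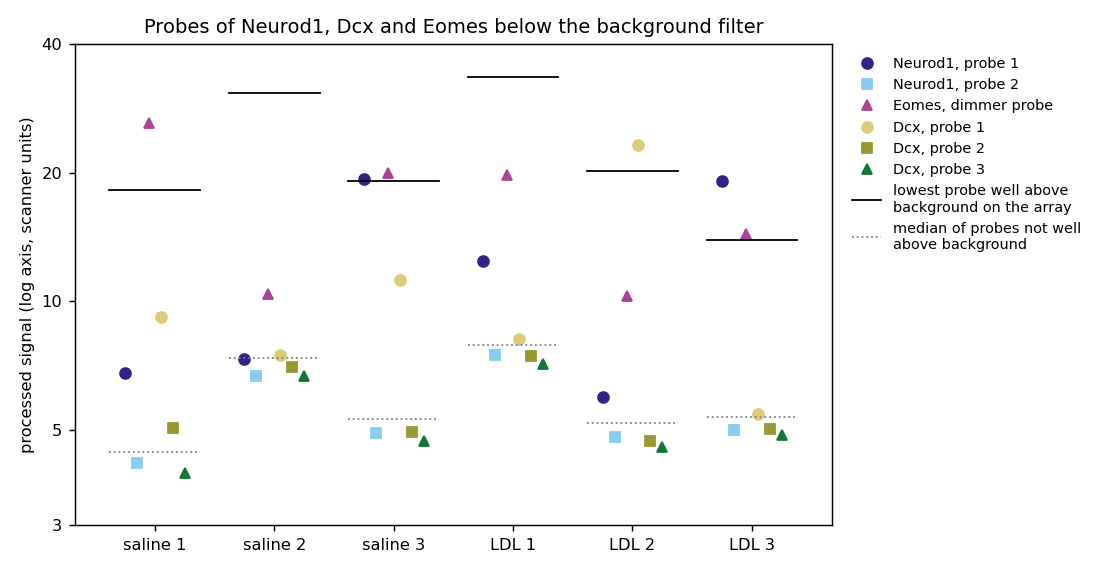
Processed signal (scanner units, log axis) on each array of the 6 probes of Neurod1, Dcx and Eomes that were not tested; solid lines give the lowest signal of any probe called well above background on that array and dotted lines the median of the probes not so called. The call also uses the spread of the background, so a probe can lie above the solid line without it, as a Dcx probe at 23.2 did on LDL replicate 2.

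Prox1, the homeobox factor that sets and keeps granule neuron identity, was the only tested gene of the 9 with a higher mean after LDL. On 6 of 6 arrays its single probe was well above background, with processed signals of 116, 136 and 213 on the saline arrays and 252, 193 and 219 on the LDL arrays. The levels were -2.71, -2.43 and -2.15 on the saline arrays and -1.93, -2.12 and -2.13 on the LDL arrays. The groups did not overlap on the normalized scale, but saline replicate 3 and LDL replicate 3 lay within 0.02 of each other, and in the unscaled signals saline replicate 3 lay above LDL replicate 2. The mean went from -2.43 ± 0.28 to -2.06 ± 0.12 (SD, n = 3 each), a log2 fold change of 0.37 (SE 0.16, 95% interval -0.01 to 0.75) that did not pass (limma adjusted p = 0.668). It was 0.23 without saline replicate 1, the lowest of the 6 arrays for this gene. Slide row 1, which held 2 arrays of each group, gave a difference of 0.55, and slide row 2, which held 1 of each, gave 0.02.

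The SoxC factors Sox4 and Sox11 were well above background at both of their probes on all 6 arrays. The brighter Sox4 probe had levels of 1.39, 2.00 and 1.85 on the saline arrays and 1.43, 1.49 and 1.54 on the LDL arrays. Saline replicate 1 lay below all LDL arrays and the other saline arrays above them, so the groups overlapped. The log2 fold change was -0.26 (SE 0.17, 95% interval -0.65 to 0.13, limma adjusted p = 0.793). The value was -0.14 without saline replicate 2 and -0.44 without saline replicate 1. The dimmer Sox4 probe had levels of -0.40, 0.20 and 0.00 on the saline arrays and -0.60, -0.42 and -0.55 on the LDL arrays. There the groups did not overlap, and with each probe tested as a feature of its own the difference was -0.46 (95% interval -0.85 to -0.06, limma adjusted p = 0.653).

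Sox11 has a role in young neurons that overlaps with that of Sox4. Its brighter probe had levels of 3.66, 3.20 and 3.50 on the saline arrays and 3.09, 3.25 and 3.33 on the LDL arrays, which overlap because of saline replicate 2. For this probe the log2 fold change came to -0.23 (SE 0.14, 95% interval -0.57 to 0.11, limma adjusted p = 0.792), -0.13 without saline replicate 1 and -0.36 without saline replicate 2. The dimmer probe had 2.27, 1.91 and 1.96 on the saline arrays and 1.51, 1.60 and 1.66 on the LDL arrays, with no overlap. Its difference of -0.46 (95% interval -0.76 to -0.15) had an unadjusted p of 0.00928, the smallest of the 10 tested probes of the 9 genes, and did not pass (limma adjusted p = 0.543 over single probes). With the mean over both probes as the value of the gene the log2 fold change was -0.34 for Sox11 and -0.36 for Sox4.

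**Figure D3:**
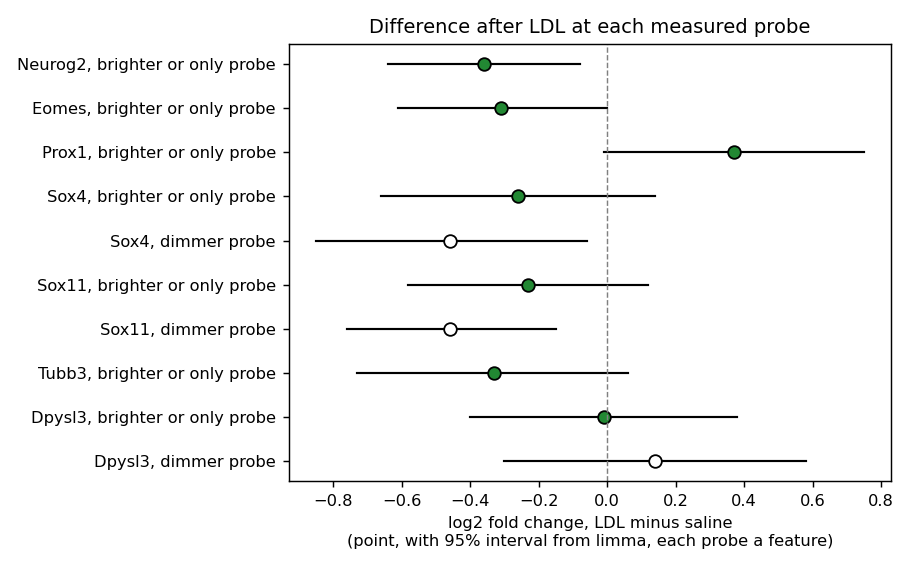
Log2 fold change (LDL minus saline) with its 95% interval from limma for the 10 probes tested, each as a feature of its own; filled points are the probe that stood for a gene and open points the dimmer probe of Sox4, Sox11 and Dpysl3. Of the 10 values 8 lie below 0, and the intervals of Neurog2 and of the dimmer Sox4 and Sox11 probes do not reach 0, while that of Eomes ends at 0 within rounding.

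Among the cytoskeletal genes, Dcx was not detected and Tubb3 and Dpysl3 were. Dcx encodes doublecortin, the microtubule-binding protein of migrating young neurons, and none of its 3 probes was well above background on any array. Its brightest probe had processed signals of 9.17, 7.48 and 11.2 on the saline arrays and 8.15, 23.2 and 5.46 on the LDL arrays. LDL replicate 2 was the highest of these and LDL replicate 3 the lowest. It was positive and significant over background on 4 of 6 arrays. The other 2 probes, with that flag on 1 array and on none, ran from 3.97 to 7.45 on the 6 arrays. No fold is given, since both groups lay below the detection call.

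Tubb3, the beta-tubulin of neurons, had levels of 1.63, 1.40 and 1.04 on the saline arrays and 0.89, 1.11 and 1.05 on the LDL arrays. Saline replicate 3 lay among the LDL arrays, so the groups overlapped. The mean went from 1.36 ± 0.30 to 1.02 ± 0.11 (SD, n = 3 each), a log2 fold change of -0.33 (SE 0.16, 95% interval -0.72 to 0.05) that did not pass (limma adjusted p = 0.726). Without saline replicate 1 it was -0.20 and without saline replicate 3 it was -0.49. In slide row 1 the difference was -0.51 and in slide row 2 it was 0.01.

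Dpysl3, a collapsin response mediator protein of growing neurites, had processed signals of 10097, 13624 and 15157 on the saline arrays and 12856, 14390 and 16251 on the LDL arrays at its brighter probe. Its levels of 3.73, 4.22 and 4.00 on the saline arrays and 3.75, 4.09 and 4.08 on the LDL arrays overlapped throughout. The log2 fold change was -0.01 (SE 0.16), and its 95% interval of -0.40 to 0.38 corresponds, at this probe, to a ratio of LDL over saline between 0.759 and 1.30. The dimmer probe, with signals from 141 to 266, had 0.14 (95% interval -0.30 to 0.58, limma adjusted p = 0.921 over single probes). Replicate 1 had the lowest level in both groups and at both probes, and the SD within a group, 0.25 with saline and 0.20 with LDL at the brighter probe, exceeded the difference between the groups.

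Counted together, 3 of the 7 tested genes had groups that did not overlap, 2 lower (Neurog2 and Eomes) and 1 higher (Prox1), where 14.7% of all features did, 8.79% lower and 5.86% higher. The 2 genes with an unadjusted p under 0.05 compare with 7.5% of all features. The median log2 fold change was -0.26 over the 7 and -0.03 over all features. Because the genes were chosen with earlier results of these data known, these shares are not an independent contrast. Within slide row 1 the differences of Neurog2, Eomes, Sox4, Sox11 and Dpysl3 were -0.31, -0.22, -0.23, -0.25 and -0.05, and in slide row 2 they were -0.46, -0.48, -0.31, -0.18 and 0.08.

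Further genes of neuronal differentiation, and repressors of it, were read from 5 lists of 69 genes, of which 58 could be tested. These lists too were chosen with earlier results of these data known. The 58 include 8 repressors of neuronal fate, 6 negative and 2 positive, so the pooled counts mix genes of opposite roles. None of the 58 passed over all features in limma, and 17 had an unadjusted p under 0.05, where 7.5% of all features did. The median was -0.10, with 39 negative and 19 positive values, while over all features the median was -0.03, with 13631 negative and 10591 positive values. The groups did not overlap for 14 lower and 4 higher genes, 31% of the 58 against 14.7% of all features. Of 10 other bHLH factors 5 were tested, while Neurod2, Neurod4, Neurod6, Nhlh2 and Atoh1 were well above background on no array. Bhlhe22 had a log2 fold change of -0.36 (limma adjusted p = 0.579) with groups that did not overlap, Nhlh1 -0.23 and Neurog3 0.27, and the second Nhlh1 probe had 0.03.

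Of 16 other transcription factors of neuronal differentiation 12 were tested, with 8 negative and 4 positive values. Myt1, Myt1l and St18 were well above background on no array, and Tbr1, a factor of postmitotic neurons that follows Eomes, on 4 arrays only. Hes6, which opposes Hes1 and favours neuronal differentiation, had 2.70, 3.06 and 2.87 on the saline arrays and 2.26, 2.41 and 2.42 on the LDL arrays. This was a log2 fold change of -0.52 (SE 0.12, limma adjusted p = 0.398), with groups that did not overlap. Zbtb18, a repressor needed for cortical neuron differentiation, had -0.48, the antiproliferative gene Btg2 -0.28 and the POU factor Pou3f2 -0.47 (adjusted p = 0.486, 0.557 and 0.638), although the 3 Pou3f2 probes ran from -0.47 to -0.14.

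The families of Tubb3 and Dpysl3 held differences in both directions. All 11 members of this list were tested, with 7 negative and 4 positive values. Dpysl2, a close relative of Dpysl3, had levels of 4.65, 4.31 and 4.30 on the saline arrays and 3.86, 3.74 and 3.84 on the LDL arrays. The log2 fold change of -0.61 (SE 0.13, 95% interval -0.90 to -0.31) had the smallest p of the 58 genes and did not pass (limma adjusted p = 0.296). Crmp1, of the same family, had -0.48 (adjusted p = 0.377), while Dpysl4 had 0.23 and Dpysl5 -0.04. Of the tubulins, Tubb4b had 0.29 and Tubb5 -0.19 (adjusted p = 0.656 and 0.781).

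Of 24 neurite, migration and immature neuron genes 22 were tested, 14 negative and 8 positive, while Stmn2 was well above background on no array and Elavl3 on 1. Cdk5r1, the activator of the neuronal kinase Cdk5, had -0.47 and Stmn1, a microtubule-destabilizing protein also of dividing cells, -0.36 (limma adjusted p = 0.451 and 0.488). The microtubule-associated gene Mapt had 0.36 and the adhesion molecule gene Ncam1 0.38 (adjusted p = 0.490 and 0.527), and all 4 had groups that did not overlap. The probes of Mapt ran from 0.36 to 2.64 and those of Ncam1 from -0.11 to 0.38, so the size for Mapt and the direction for Ncam1 depend on the probe. Among 8 repressors of neuronal fate, all well above background on 6 arrays, the groups overlapped for each. Hes5, a Notch target, had -0.46, Id2 0.34, Id1 -0.28 and Rest, which silences neuronal genes, 0.15 (adjusted p between 0.634 and 0.839), while the second Rest probe had -0.09.

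**Figure D4:**
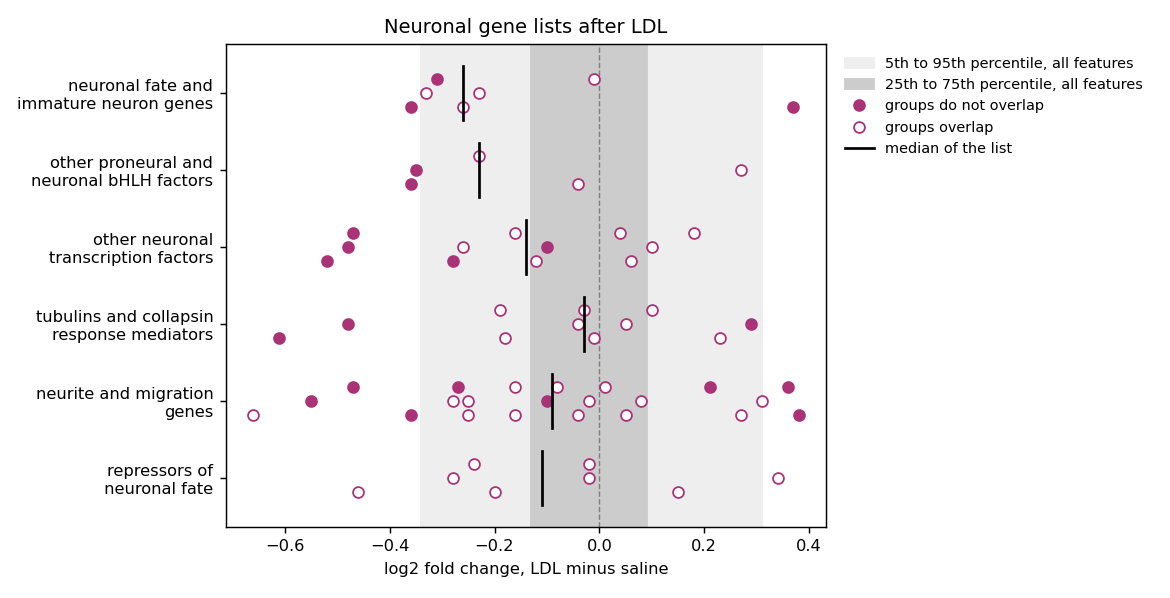
Log2 fold change (LDL minus saline) of each tested gene in 6 lists, with the median of each list (black line) and the 5th to 95th and 25th to 75th percentiles of all 24222 features (shaded); filled points are genes whose groups did not overlap. The medians run from -0.26 for the 7 genes described here to -0.03 for the tubulins and collapsin response mediators, where the median of all features is -0.03.

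At the best probe of each gene, 11 of 12 precursor markers, among them Nes, Sox2, Fabp7 and Mki67, were well above background on all 6 arrays (Prom1 on 4). Of all probes, each counted singly, 54.9% had this call, so the count alone does not single out a cell type. Of 12 mature neuron markers 7 were well above background on all arrays, and Slc17a7, Gad2, Nefl and Nefm on none. All 8 oligodendrocyte lineage and 8 astrocyte markers were detected on every array, against 5 of 8 microglia and 4 of 8 vascular markers, with P2ry12, Tyrobp, Cdh5, Pdgfrb and Rgs5 on none. A summed level adds the scaled signals of the best probe of each gene, tested or not, on the linear scale, so bright genes weigh most. The summed level of the astrocyte list ran from 7.34 to 7.54 with saline and from 7.04 to 7.21 with LDL. Of its 8 genes 7 had negative values and 1, Gfap, a positive one, with a median of -0.23. Gfap alone passed, with a log2 fold change of 1.35 (limma adjusted p = 0.0216) at one of 2 tested probes and 0.15 at the other. No higher feature passed, Gfap included, without the background filter or when saline replicate 2 or 3 or any 1 of the LDL arrays was left out, and the Gfap call was not followed through the other settings. The sums for precursor (8.53 to 8.79 and 8.61 to 8.71), mature neuron (3.55 to 4.20 and 3.59 to 3.93), oligodendrocyte (6.49 to 6.93 and 6.39 to 6.75) and microglia markers (4.32 to 4.62 and 4.29 to 4.58) overlapped between saline and LDL. Those of vascular markers ran from 3.85 to 3.92 and from 3.78 to 3.85. As for the astrocyte list, the sums stood apart for the bHLH factors (2.14 to 2.42 with saline, 1.99 to 2.13 with LDL). They also did for the other neuronal transcription factors (5.9 to 6.02 and 5.69 to 5.77). Those of tubulins and collapsin response mediators and of repressors overlapped, and those of neurite and migration genes met at 7.35. Gene by gene, 6 of the 8 tested mature neuron markers had positive and 2 negative values, with a median of 0.15. None of these 8 passed (smallest limma adjusted p = 0.622). The part of the astrocyte markers in the neuronal gene values was not tested.

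The named genes whose levels over the 6 arrays were most like those of each tested gene, by Pearson correlation, were Rprml for Neurog2 (0.993), Mup2 for Eomes (0.982), Vps13a for Prox1 (0.981), Pimreg for Sox4 (0.994), Mgat4d for Sox11 (0.996), Scly for Tubb3 (0.990) and Dtd1 for Dpysl3 (0.992). Next in order were H1f6 (0.990), Gen1 (0.971), Parva (0.978), Hnrnpl (0.994), Gm16863 (0.991), Ecrg4 (0.988) and Prrx2 (0.991). These are the extremes of 14931 named features over 6 arrays that share a slide and a scaling, and no gene of the 9 was the nearest of another.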

How the data were processed

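The 9 genes and the gene lists were chosen with earlier results of these data known. Scanner output was deposited as intensity on a linear scale, which Agilent Feature Extraction 10.7.3.1 background-subtracted and detrended within each 1-colour array, per the file headers. The authors also deposited log2 values, with R 3.4.4 and limma 3.34.9 listed in the submitters' processing notes and the method of normalization not given in the sources used here. They correlated with the scanner values at r between 0.987 and 0.993 across probes, had column medians between 6.74 and 6.76, and served as an alternative. The array flags (well above background, positive and significant, and outlier, deposited as 0 or 1 per spot) are other values per the file headers.

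Outlier-flagged spots were dropped, and log2 processed signal was taken relative to the 75th percentile of each array. That percentile lay at signals between 730 and 962. A probe was tested if it was well above background, at 50% or more of its spots, on all 3 arrays of a group (32993 of 55681 probes). Of the probes, 28331 matched a gene of the RefSeq table (GRCm38.p6, for names only). Each gene was represented by its brightest tested probe (mean over arrays), which gave 24222 features, 14931 of them named. In 57 of these at least 1 array was left out by a flag, in none of the 9 genes. The groups were fitted without covariates in limma 3.58.1 (R 4.3.3), two-sided, p-values were adjusted across all features by the Benjamini-Hochberg method, and the fit was tested on simulated data. With 3 arrays a group the smallest p of an exact permutation test is 0.1. The labels name separate passages but tie no array to an animal, so p-values measure the spread between these cultures only, and 6 arrays limit the precision.

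Named were all 9 genes and the 2 genes most correlated with each tested gene. In each list of neuronal genes or repressors, up to 4 genes with the smallest p and the untested genes were also named. The lists of cell type markers did not follow this rule, and not all of their untested genes were named. Among their tested genes left unnamed, groups did not overlap for Hopx, Syn1 and Gad1, higher with LDL, and for Slc1a3, Aldoc, Tmem119 and Kdr, lower with LDL. Dpysl4, Dpysl5, Nes, Sox2, Fabp7 and Mki67 were named beside their lists after values were seen. A result that this rule would name is not reported here. The alternatives changed the normalization (normexp, offset 50, then quantile; quantile alone; median scaling; the authors' values), the background filter, the choice of probes, the block (replicate number, slide row) or the variance model (trended, robust), or left out 1 array. Signal that paralogs such as other tubulins may add was not separated, since the letters of the probes were not used here. Figures were drawn with matplotlib 3.10.9.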

Additional observations from a re-analysis of the deposited data

How the results depend on the processing

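The 0 calls among the 7 tested genes and the 0 calls in the 5 wider lists held in each of the 17 alternatives, and at an unadjusted p under 0.05 the number of the 7 genes ranged from 0 to 3. Several of the 17 could not move a fold change of the 7 genes, because the same probe or a balanced block was used or only the variance changed. These were the background filter, single probes as features, the blocks and the variance model. The mean over probes could not move those of Neurog2, Eomes, Prox1 and Tubb3, with 1 tested probe each. With these included, Neurog2, Eomes, Prox1, Sox4, Sox11 and Tubb3 kept their direction in all 17. That of Dpysl3, at -0.01, turned to 0.06 for the mean over probes, 0.03 after median scaling, 0.02 after normexp followed by quantile normalization, and 0.01 both after quantile normalization alone and in the authors' log2 values, and ran from -0.14 to 0.11 with 1 array left out. The 34 calls over all features became 58 with trended robust variances, 16 with slide row as a block and 0 without the background filter (1781 features then had an unadjusted p under 0.05 in limma), and ran from 0 to 32 with 1 array left out: 32 without saline replicate 1, 18 without LDL replicate 1, 3 without saline replicate 2, and 0 without LDL replicate 2, saline replicate 3 or LDL replicate 3 (996, 1562 and 1383 features at an unadjusted p under 0.05). The cause was not tested. A replicate block left 13 calls and the fold changes of the 7 genes as they were. Deviations of same-numbered arrays correlated at 0.24, -0.08 and 0.21 across features, and those of differently numbered arrays at -0.27 to 0.08. The main fit did not assume pairing. Signal over background limits the dim probes of Neurog2 and Eomes, and Neurod1 and Dcx gave no measured difference.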
